A study of Mus musculus with 8 samples.

Results

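The MHC class II genes measured here were 7 genes chosen by name: H2-Aa, H2-Ab1, H2-Eb1, H2-DMa, H2-DMb1, Cd74 and their activator Ciita. Each was read by 1 probe, and all 7 passed the filter on dim probes, out of 19752 named genes on the array, of which 14066 were tested. RNA from the liver of 10-week-old mice was hybridised to single-colour long-oligonucleotide arrays labelled with Cy3, 1 mouse per array, with 4 arrays from Rap1 -/- mice and 4 arrays from wild-type mice. Rap1 (gene Terf2ip) is a telomere-binding protein that also binds along chromosome arms, and the study asked how its loss alters liver transcription before the mice become obese. The Rap1 -/- mice carried the deletion in the whole body and the germline: a floxed allele had been deleted by Cre under the adenoviral EIIa promoter, active in the early embryo, and the Cre transgene was then bred out. Both genotypes shared the C57BL6/129SV (90%:10%) background, and the study describes the mice as young females, while the feeding state of these livers is not given in the labels. Every cell type lacked the gene, so a difference in whole liver is not tied to its loss in any one of them.

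MHC class II molecules carry peptides from engulfed material to the surface of dendritic cells, B cells and macrophages, where CD4 T cells read them. In liver they are known mainly from resident macrophages (Kupffer cells), dendritic cells and B cells, and hepatocytes in health carry little. The invariant chain Cd74 escorts the newly made alpha and beta chains into endosomes, H2-DM exchanges the last fragment of Cd74 for a peptide, and Ciita, a co-activator induced by interferon gamma, is recruited to a shared promoter module of X and Y boxes bound by RFX, CREB and NF-Y.

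The 8 arrays lay on 2 slides, each with 2 arrays of either genotype. Rap1 -/- replicates 1 and 2 shared slide 1 with wild-type replicates 1 and 2, and the remaining 4 arrays formed slide 2. On both slides the Rap1 -/- arrays occupied positions 3 and 4 and the wild-type arrays positions 1 and 2, so position and genotype cannot be told apart. The share of the 55681 probes well above background was 50.03% to 57.5% on Rap1 -/- arrays and 53.3% to 65.3% on wild-type arrays, the highest being that of wild-type replicate 4. The labels were checked on Terf2ip. Its probe A_52_P381806 lay between -6.57 and -5.65 in Rap1 -/- livers, where 0 of 4 arrays had it well above background, against 0.03 to 0.23 in wild-type livers. A second probe, A_55_P2094079, read 0.03 to 0.44 in Rap1 -/- livers and -1.12 to -0.69 in wild-type livers, and the sources do not say which of the probes lies in the deleted stretch. Levels here and below are log2 of the processed signal minus the 75th percentile of the array, so 0 marks the 75th percentile and 1 unit is a doubling. That percentile was higher on every Rap1 -/- array (signal of 219.78 to 226.87) than on any wild-type array (178.87 to 209.28). With quantile normalization in its place, the median log2 difference of the class II genes between genotypes was -0.52. Levels of different genes come from different probes and are not set against each other, and sums over a marker list serve only to set livers side by side. The albumin gene Alb differed by -0.21 ± 0.09 (SE), and all 8 hepatocyte genes examined were well above background on all arrays.

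Promoter windows running from 250 bases before to 50 bases after the gene start were taken from RefSeq (GRCm38.p6). The set of windows used here covered 4 of the 7 genes: H2-Aa, H2-Eb1, H2-DMa and H2-DMb1. It had no window for H2-Ab1, Cd74 and Ciita, so these were not searched. Windows of 3 genes are shown because they hold matches to boxes of the module to which Ciita is recruited, and the capitals mark those matches. Both strands were searched for an X box core (AG, any 2 bases, AC, any base, GATG), a Y box core (TGATTGG) and a cAMP response element (TGACGTCA), and no match overlapped another in these windows.
H2-Eb1, chr17:34305617-34305916, plus strand: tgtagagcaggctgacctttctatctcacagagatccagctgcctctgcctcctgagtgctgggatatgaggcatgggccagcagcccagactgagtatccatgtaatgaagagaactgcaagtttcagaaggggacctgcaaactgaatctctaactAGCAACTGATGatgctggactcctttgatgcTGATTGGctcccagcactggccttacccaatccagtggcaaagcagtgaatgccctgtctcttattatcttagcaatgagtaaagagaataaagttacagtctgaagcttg
H2-DMb1, chr17:34152941-34153240, plus strand: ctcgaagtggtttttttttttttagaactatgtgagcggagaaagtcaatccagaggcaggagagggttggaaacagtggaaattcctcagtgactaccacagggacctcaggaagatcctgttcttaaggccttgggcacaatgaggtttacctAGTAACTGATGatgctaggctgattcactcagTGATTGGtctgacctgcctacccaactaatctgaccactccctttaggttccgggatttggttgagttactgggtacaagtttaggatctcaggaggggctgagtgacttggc
H2-Aa, chr17:34287774-34288073, minus strand: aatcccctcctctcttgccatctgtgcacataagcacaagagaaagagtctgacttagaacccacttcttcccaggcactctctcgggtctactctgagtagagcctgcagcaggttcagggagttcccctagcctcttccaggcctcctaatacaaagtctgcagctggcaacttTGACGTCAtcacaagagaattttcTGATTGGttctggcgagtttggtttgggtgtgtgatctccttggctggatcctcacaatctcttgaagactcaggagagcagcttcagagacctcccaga

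In H2-Eb1 the X box core began 92 bases upstream of the gene start and the Y box core 61 bases upstream, and in H2-DMb1 they began 95 and 63 bases upstream, so order and spacing were alike. H2-Aa held a cAMP response element 74 bases upstream and a Y box core 50 bases upstream, and no match to these X box letters. The H2-DMa windows held none of the 3 motifs, which says only that these letters are not in those windows. Over all 32851 promoter windows the X box core occurred in 0.968%, the Y box core in 7.82% and the cAMP response element in 1.79%. Both X and Y box cores occurred in 0.0548% of windows, those of 17 genes, of which 4 were class II genes (H2-Eb1, H2-DMb1, H2-Eb2 and H2-Oa). The matches are descriptions of the sequence and no binding was measured.

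**Figure D1:**
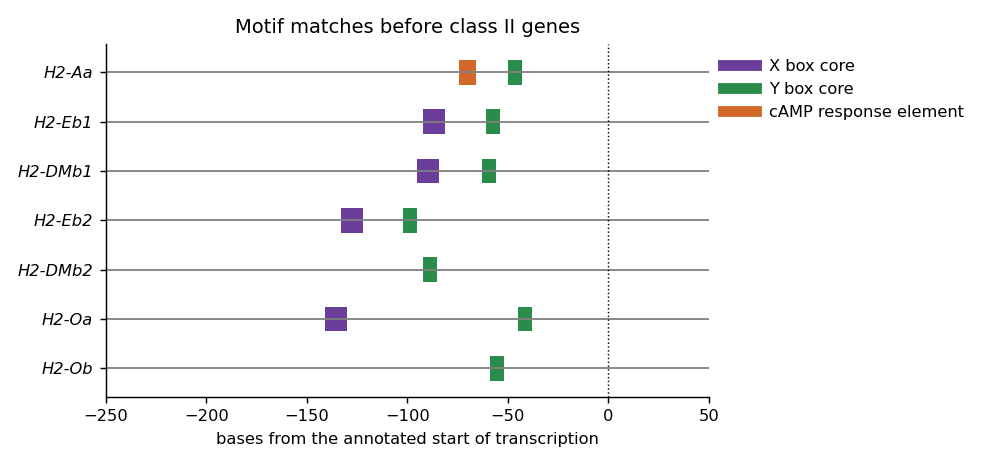
Matches to the X box core, Y box core and cAMP response element along the promoter windows of class II genes, by distance in bases from the gene start. The X box core of H2-Eb1 and H2-DMb1 lies 92 and 95 bases upstream, each followed by a Y box core.

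In the comparison of genotypes, all 7 class II genes averaged lower in Rap1 -/- livers than in wild-type livers, but no difference passed the test. The median log2 difference of the 7 genes was -0.49, against 0.02 over all 14066 tested genes, of which 43.9% lay below 0. At an adjusted p under 0.05 (limma, Benjamini-Hochberg over all tested genes) 0 of the 7 genes were called, against 0.0142% of all genes, and in the fit over 31068 probes again 0 of 7, against 0.00644% of probes. At an adjusted p under 0.15 the count was 0 of the 7, against 0.0284%. An unadjusted p under 0.05 with a lower mean was reached by 1 of the 7 genes, Ciita, against 2.35% of all genes in that direction and 6.36% in either. Ciita was near background and met the filter with 1 Rap1 -/- array and 3 wild-type arrays, so this count is no result about the set. Without Ciita 0 of 6 genes reached that p, and their median log2 difference was -0.47. In none of the 7 did all Rap1 -/- livers lie below all wild-type livers, which occurred in 1.3% of all genes. Leaving out 1 array at a time put the median between -0.74 (without Rap1 -/- replicate 3) and -0.33 (without Rap1 -/- replicate 1), and 0 of 7 were called in any of these 8 fits, against 0.00711% of all genes in each. Whole liver was measured, so fewer class II-bearing cells and less class II RNA per cell cannot be told apart.

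H2-Aa and H2-Ab1 encode the alpha and beta chains of I-A, the class II molecule of C57BL6 mice. H2-Aa read 1.21, 1.96, 2.40 and 0.93 in Rap1 -/- replicates 1 to 4, against 2.5, 2.27, 1.5 and 1.92 in wild-type replicates 1 to 4. H2-Ab1 read 4.86, 5.43, 5.91 and 4.64 in Rap1 -/- livers, against 5.98, 6.19, 5.14 and 5.32 in wild-type livers. Both genes had the same outline: Rap1 -/- replicate 3 lay among the highest arrays, replicates 1 and 4 lay below every wild-type liver, and the genotypes overlapped. H2-Aa averaged 1.62 ± 0.68 in Rap1 -/- livers and 2.04 ± 0.44 in wild-type livers (SD, n = 4 each), a log2 difference of -0.42 ± 0.34 (SE). H2-Ab1 averaged 5.21 ± 0.57 in Rap1 -/- livers and 5.66 ± 0.51 in wild-type livers (SD, n = 4 each), a difference of -0.45 ± 0.33 (SE). Both differences were smaller than the SD between Rap1 -/- livers, and both changed by over 1.5 times when single arrays were left out. H2-Aa differed by -0.68 without Rap1 -/- replicate 3, -0.19 without Rap1 -/- replicate 4 and -0.27 without wild-type replicate 1. H2-Ab1 differed by -0.68 without Rap1 -/- replicate 3, -0.26 without Rap1 -/- replicate 4 and -0.27 without wild-type replicate 2.

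H2-Eb1 encodes the beta chain of I-E, whose alpha chain is H2-Ea. H2-Eb1 read 4.60, 5.09, 5.76 and 4.51 in Rap1 -/- replicates 1 to 4, against 5.76, 5.80, 5.08 and 5.13 in wild-type replicates 1 to 4. Again Rap1 -/- replicate 3 stood with wild-type replicates 1 and 2 at the top, and replicates 1 and 4 stood at the bottom. The means were 4.99 ± 0.57 in Rap1 -/- livers and 5.44 ± 0.39 in wild-type livers (SD, n = 4 each), a log2 difference of -0.46 ± 0.30 (SE), which was -0.71 without Rap1 -/- replicate 3 and -0.30 without Rap1 -/- replicate 4.

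Cd74 encodes the invariant chain. It read 3.89, 4.37, 5.07 and 3.83 in Rap1 -/- replicates 1 to 4, against 5.18, 5.03, 4.39 and 4.53 in wild-type replicates 1 to 4. All Rap1 -/- livers but replicate 3 lay below the lowest wild-type liver. The means were 4.29 ± 0.57 in Rap1 -/- livers and 4.78 ± 0.38 in wild-type livers (SD, n = 4 each), a log2 difference of -0.49 ± 0.29 (SE), which was -0.75 without Rap1 -/- replicate 3 and -0.34 without Rap1 -/- replicate 4.

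H2-DMa and H2-DMb1 encode the chains of the peptide-exchange factor H2-DM, which stays in endosomes. H2-DMa read -0.87, -0.22, 0.45 and -0.43 in Rap1 -/- replicates 1 to 4, against 0.33, 0.44, -0.11 and 0.28 in wild-type replicates 1 to 4. H2-DMb1 read 1.87, 1.66, 2.80 and 1.54 in Rap1 -/- livers, against 2.96, 3.08, 2.21 and 2.01 in wild-type livers. In both genes all Rap1 -/- livers but replicate 3 lay below the lowest wild-type liver. H2-DMa averaged -0.27 ± 0.55 in Rap1 -/- livers and 0.23 ± 0.24 in wild-type livers (SD, n = 4 each), a log2 difference of -0.50 ± 0.26 (SE), which was -0.74 without Rap1 -/- replicate 3 and -0.30 without Rap1 -/- replicate 1. H2-DMb1 averaged 1.97 ± 0.57 in Rap1 -/- livers and 2.56 ± 0.53 in wild-type livers (SD, n = 4 each), a difference of -0.60 ± 0.33 (SE). H2-DMb2 is a close copy of H2-DMb1, and whether the H2-DMb1 probe reads both was not tested.

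Ciita was near background. Its probe read -4.17, -4.65, -3.96 and -5.93 in Rap1 -/- replicates 1 to 4, against -3.21, -3.20, -4.39 and -2.29 in wild-type replicates 1 to 4. It was well above background on 1 of 4 Rap1 -/- arrays (replicate 3) and on 3 of 4 wild-type arrays (replicates 1, 2 and 4), so it just met the filter of 4 arrays. Its highest level came from wild-type replicate 4, the array with the largest share of probes well above background. The part of that share in the difference was not tested. The means were -4.68 ± 0.88 in Rap1 -/- livers and -3.27 ± 0.86 in wild-type livers (SD, n = 4 each), a log2 difference of -1.40 ± 0.52 (SE), with a 95% interval of -2.57 to -0.23. Without wild-type replicate 4 the difference was -1.08, with an unadjusted p of 0.0638 in limma, against 0.0239 with all arrays. Without Rap1 -/- replicate 4, the lowest reading, it was -0.99, with an unadjusted p of 0.0558 in limma. In 6 of the 8 fits that left out 1 array the unadjusted p in limma stayed under 0.05. The size of the difference depended on the treatment of background. With normexp correction, which lifts dim signals, and quantile normalization it was -0.23, and with normexp and the 75th percentile -0.37.

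**Figure D2:**
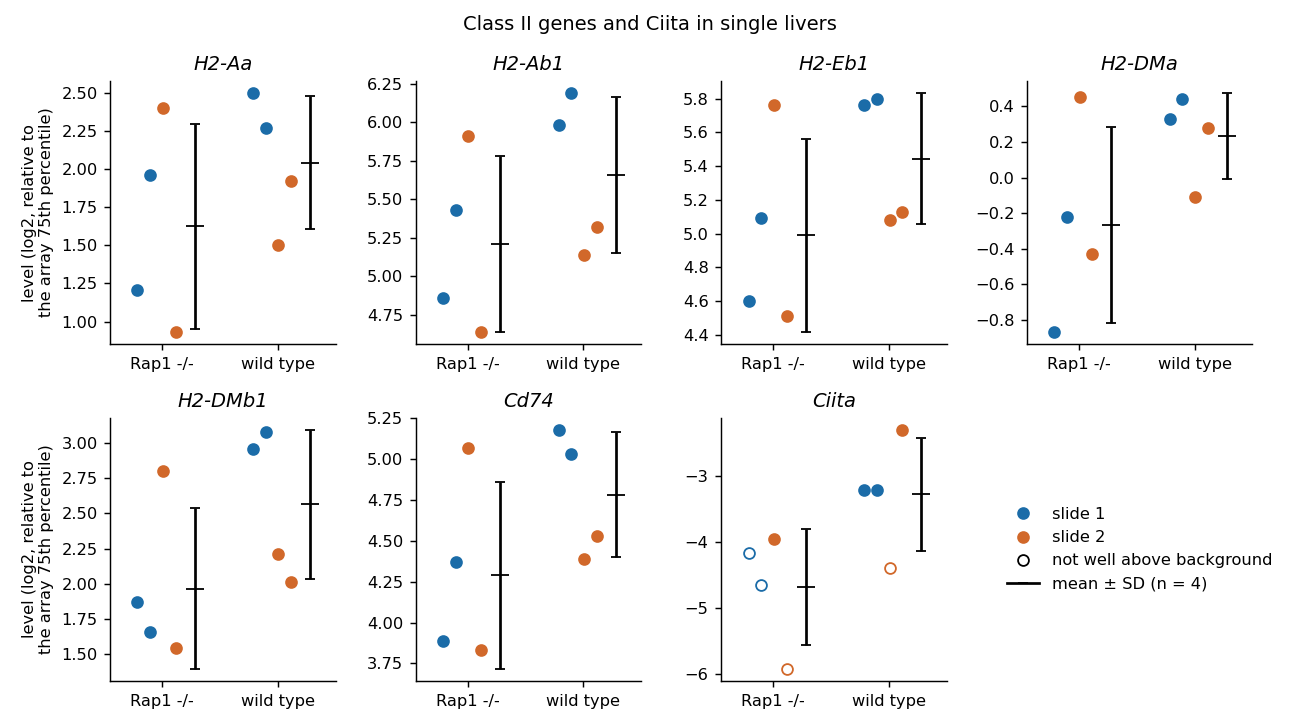
Level of each class II gene and Ciita (log2, with 0 at the 75th percentile of its array) for each liver, with Rap1 -/- left of wild type and the mean and SD of each genotype. The genotypes overlap in every panel, and Rap1 -/- replicate 3 is the highest of its genotype in all 7.

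The 95% intervals of the log2 difference of the other 6 genes all spanned 0, from -1.19 to 0.36 for H2-Aa, -1.19 to 0.29 for H2-Ab1, -1.13 to 0.22 for H2-Eb1, -1.16 to 0.17 for Cd74, -1.09 to 0.09 for H2-DMa and -1.35 to 0.16 for H2-DMb1. Adjusted p-values from limma ran from 0.770 for Ciita to 0.857 for H2-Aa. In two-sided exact permutation tests over the 70 ways to part 8 livers into 4 and 4, p was 0.0857 for Ciita, 0.171 for H2-DMb1, 0.200 for H2-DMa and Cd74, 0.229 for H2-Eb1 and 0.314 for H2-Aa and H2-Ab1. The smallest p this design allows is 0.0286.

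The same comparison within each slide gave different values. Ciita is taken apart here, since on slide 1 it was well above background on 0 of 2 Rap1 -/- arrays and 2 of 2 wild-type arrays. On slide 1 both Rap1 -/- livers lay below both wild-type livers in 6 of the 6 other genes, which held for 13% of all tested genes. The log2 difference of these 6 there ran from -1.26 (H2-DMb1) to -0.80 (H2-Aa), with a median of -0.94: -1.26 ± 0.19 for H2-DMb1, -0.97 ± 0.23 for Cd74, -0.94 ± 0.25 for H2-Ab1, -0.94 ± 0.23 for H2-Eb1, -0.93 ± 0.27 for H2-DMa and -0.80 ± 0.29 for H2-Aa (SE, n = 2 each). All 6 had an unadjusted p under 0.05, against 2.35% of all genes in that direction, and 0 of 6 passed an adjusted p of 0.05 in limma, against 0% of all genes, the lowest adjusted p among them being 0.867 for H2-DMb1. The 6 genes were read in the same 4 livers and vary together, so they are not 6 independent readings. For Ciita each Rap1 -/- array of slide 1 was set no lower than the lowest level of any probe well above background there. On that footing Ciita averaged 1.59-fold lower in Rap1 -/- than in wild-type livers of slide 1. The value rests on 2 dim wild-type readings and on the background treatment, and carries no error, so it is no firm minimum.

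On slide 2 the differences of 6 genes lay near 0, with wide errors. The 6 genes without Ciita differed by -0.07 (H2-DMa) to 0.06 (H2-DMb1), with standard errors of 0.35 to 0.52, and the median of all 7 was -0.01. Ciita differed by -1.60 ± 0.95 (SE, n = 2 each) and was well above background on 1 of 2 arrays of either genotype. Both Rap1 -/- livers lay below both wild-type livers in 0 of 7 genes, against 13.9% of all genes, and 0 of 7 had an unadjusted p under 0.05, against 1.88% in the lower direction, and 0 of 7 passed after adjustment in limma, against 0.00711%. The slide 2 Rap1 -/- livers were the highest and the lowest of their genotype in the 6 genes, except in H2-DMa, where replicate 1 was lowest, so each mean there stands between replicate 3 and replicate 4.

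The difference between slides was tested as an interaction of genotype and slide. H2-DMb1 had the largest interaction of the 7 genes, 1.32 ± 0.53 (SE, slide 2 minus slide 1, unadjusted p = 0.0433, adjusted p = 1.00 in limma). The interactions of H2-Ab1, H2-Eb1, Cd74 and H2-DMa were 0.98, 0.96, 0.96 and 0.86, with unadjusted p-values of 0.121 to 0.135, and those of H2-Aa and Ciita were 0.75 and -0.39. In limma 0 of 7 passed after adjustment, against 0% of all genes, and 1 of 7 had an unadjusted p under 0.05, against 3.34%. The slides were therefore not shown to differ in the effect of genotype on these genes. With the slide as a block the adjusted p-values were 0.772 to 0.847, and 0 of 7 passed, against 0.00711% of all genes.

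**Figure D3:**
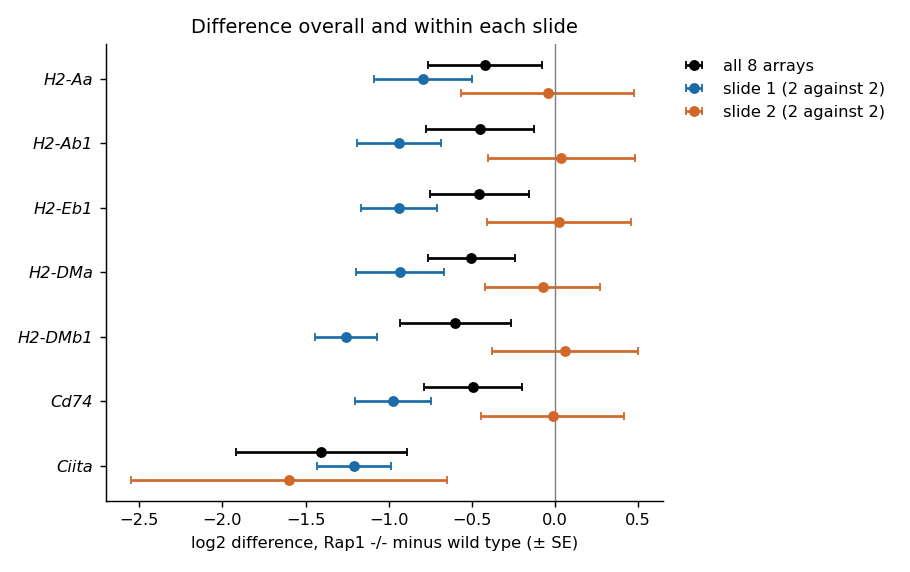
Log2 difference, Rap1 -/- minus wild type, of each class II gene over all 8 arrays and within each slide, with error bars of 1 SE. The 6 genes other than Ciita lie between -1.26 and -0.80 on slide 1 and between -0.07 and 0.06 on slide 2, and Ciita on slide 1 is drawn at its measured values although no Rap1 -/- array there was well above background.

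Between the lowest and the highest liver the 6 genes other than Ciita spanned 2.45-fold to 2.97-fold. Averaged over the 6 genes, deviations from the gene's mean over 8 arrays were -0.62, -0.16, 0.52 and -0.71 in Rap1 -/- replicates 1 to 4, and 0.57, 0.59, -0.18 and -0.01 in wild-type replicates 1 to 4. One Rap1 -/- liver, replicate 3, thus stood with wild-type replicates 1 and 2, while Rap1 -/- replicates 1 and 4 were lowest. In Rap1 -/- replicate 3 all 6 genes were 0.47 to 0.57 above their mean, and in Rap1 -/- replicate 4 all 6 were below it.

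The 6 genes varied together across livers. Over the 8 arrays the 15 pairs had Pearson r of 0.78 to 0.99 and Spearman rho of 0.76 to 0.98, r of 0.69 to 0.99 without Rap1 -/- replicate 4 and wild-type replicate 2, the arrays farthest from the median, and r of 0.68 to 0.99 for deviations from the genotype means. These are descriptions over 8 arrays that share slides and tissue composition. The lowest r of the 15 was that of H2-DMa and H2-DMb1, and the lowest rho that of H2-Aa and H2-DMb1. Ciita followed the others less closely, with r of 0.58 to 0.67, rho of 0.55 to 0.76 and r of 0.25 to 0.52 without those 2 arrays. In wild-type replicate 4 Ciita was 1.68 above its mean while the 6 genes averaged -0.01, and Ciita's values near background limit any such reading.

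**Figure D4:**
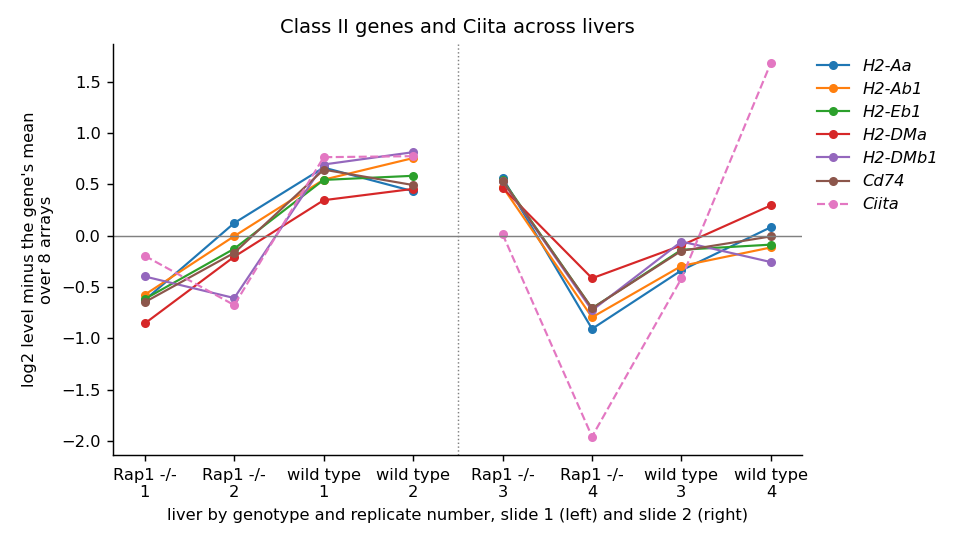
Deviation of each class II gene from its mean over all 8 arrays (log2), by array, grouped by slide with Rap1 -/- left of wild type in each. The lines of the 6 genes other than Ciita run together, with Rap1 -/- replicate 3 at 0.52 and Rap1 -/- replicate 4 at -0.71 on average.

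Of 14055 genes outside the set, 41 had a Pearson r above 0.9 with the mean of the standardised class II genes. Those with the most similar pattern were taken as the 6 with the highest r. They were Ncf1 (r = 0.99, rho = 0.93) and Cybb (r = 0.98, rho = 1.00), subunits of the phagocyte NADPH oxidase, Vav1 (r = 0.97, rho = 0.88), a signalling exchange factor of blood cells, Irgm2 (r = 0.96, rho = 0.98), an interferon-inducible GTPase, Csf2ra (r = 0.95, rho = 0.90), a subunit of the GM-CSF receptor, and Cyth4 (r = 0.95, rho = 0.98), an exchange factor for ARF proteins. Without the 2 farthest arrays r was 0.93 to 0.99. Their log2 differences were -0.24 for Ncf1, -0.39 for Cybb, -0.24 for Vav1, -0.33 for Irgm2, -0.18 for Csf2ra and -0.27 for Cyth4, none called, and within slide 1 they ran from -0.75 (Cybb) to -0.40 (Csf2ra). The 6 genes were chosen for their likeness to the class II genes on these same arrays. Lower values therefore follow from that choice and are no separate result.

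Of the 37 genes listed for the rest of the pathway, 36 had a probe and 34 were tested. Of these, 25 lay below 0, against 43.9% of all genes, and 0 passed an adjusted p of 0.05 in limma, against 0.0142% of all genes. Among the further class II genes, H2-Ob differed by -0.19 ± 0.15 (SE) and H2-Oa, its partner in the molecule H2-O that restrains H2-DM, by 0.03 ± 0.21. A second H2-Ob probe differed by -0.39 ± 0.34 in the fit over probes. H2-Eb2 was well above background on 1 of 4 Rap1 -/- arrays and 0 of 4 wild-type arrays, and H2-DMb2 on no array. H2-Ea was not matched to a probe. The 6 genes of peptide generation and invariant chain cleavage, all tested, had a median of -0.05, with Ctss (cathepsin S, which trims Cd74) at -0.11 ± 0.18, Lgmn (legumain) at -0.10 ± 0.15, Ctsd at -0.05 ± 0.11 and Ctsl at 0.12 ± 0.10. Marchf1, a ubiquitin ligase that removes class II from the surface, differed by -0.19 ± 0.34.

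The 7 genes encoding the factors that bind the X and Y boxes had a median difference of 0.03, 3 of 7 below 0. Nfyb, a subunit of NF-Y, which binds the Y box, was 1.62 ± 0.18 in Rap1 -/- livers and 1.27 ± 0.04 in wild-type livers (SD, n = 4 each), a difference of 0.35 ± 0.11 (SE), with an unadjusted p of 0.0108 and an adjusted p of 0.770 in limma. Rfxank (0.52 ± 0.31), Creb1 (-0.33 ± 0.19) and Rfx5 (-0.31 ± 0.37) differed by less than 2 SE, and Rfx5 was well above background on 2 of 4 arrays of each genotype. A second Creb1 probe had the opposite sign, 0.06 ± 0.28 in the fit over probes.

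The interferon gamma genes, which act above Ciita, had 7 of 9 below 0 and a median of -0.07. Below 0 were 8 of 9 on slide 1 and 2 of 9 on slide 2, against 5998 and 6634 of all 14066 tested genes. Ifng differed by -0.56 ± 0.46 and was well above background on 1 of 4 Rap1 -/- arrays and 3 of 4 wild-type arrays. Irf1 differed by -0.17 ± 0.19 and Jak1 by 0.17 ± 0.13. The MHC class I genes, listed for comparison, had 8 of 9 below 0 and a median of -0.11, smaller in size than that of the class II genes. Their slide medians were -0.26 and 0.06, with 8 of 9 below 0 on slide 1 and 2 of 9 on slide 2. H2-K1 differed by -0.11 ± 0.11, Nlrc5, the class I activator related to Ciita, by -0.29 ± 0.27, Tap1 by -0.28 ± 0.24 and B2m by 0.15 ± 0.09.

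**Figure D5:**
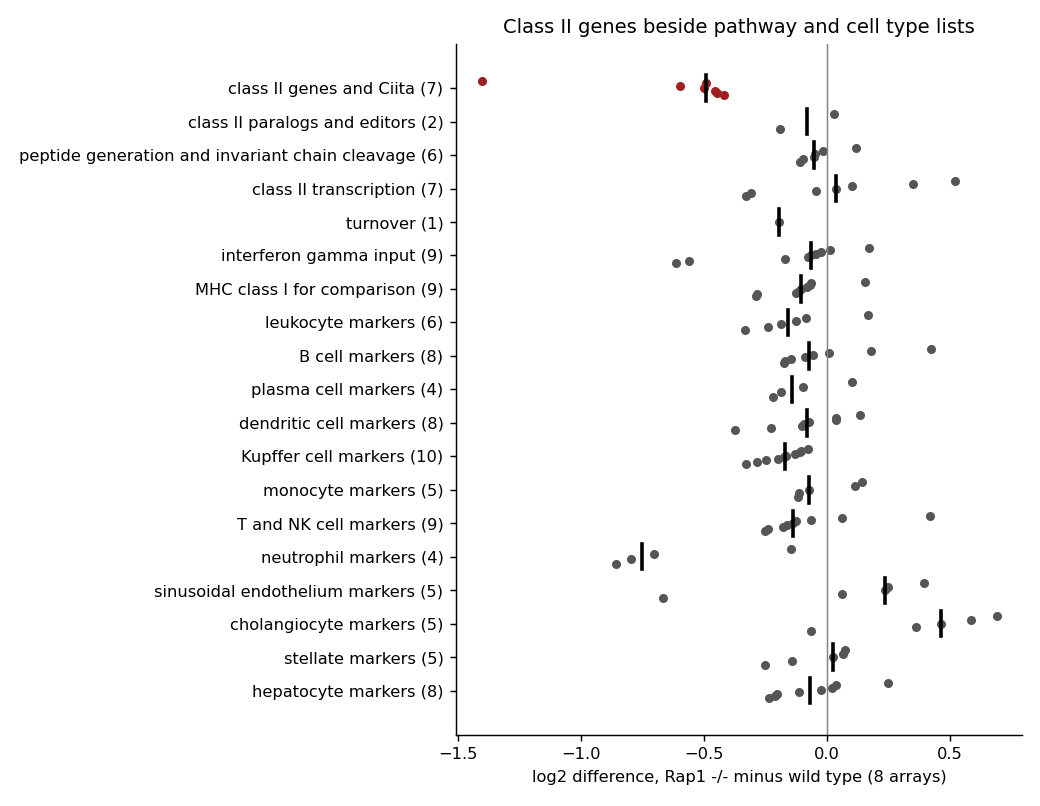
Log2 differences (Rap1 -/- minus wild type) of the tested genes of the class II set, the pathway lists and the marker lists, with the median of each. The median of the 7 class II genes is -0.49, and that of the peptide generation genes is -0.05.

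Marker genes of cells that carry or accompany class II were counted in the same fit. Over the 12 lists, 87 genes were named, 83 had a probe and 77 were tested, of which 51 lay below 0, against 43.9% of all genes, and 0 passed an adjusted p of 0.05 in limma, against 0.0142%. The 10 tested Kupffer cell genes all lay below 0, with a median of -0.17 (-0.35 on slide 1 and 0.01 on slide 2), and summed to 164 to 276 times the 75th percentile in Rap1 -/- livers and 209 to 289 in wild-type livers. By array the Kupffer cell sum was 164, 249, 276 and 205 in Rap1 -/- replicates 1 to 4, against 228, 289, 209 and 280 in wild-type replicates 1 to 4, with replicate 3 the highest of the Rap1 -/- livers, as in 8 of the 12 marker lists. Timd4 differed by -0.33 ± 0.19, C1qc by -0.29 ± 0.18 and Clec4f by -0.20 ± 0.15. The leukocyte genes had 5 of 6 below 0 and a median of -0.16, with sums of 17.4 to 26.4 in Rap1 -/- livers and 17.7 to 26.6 in wild-type livers. The B cell genes had 5 of 8 below 0, a median of -0.07 and sums of 3.02 to 5.28 in Rap1 -/- livers against 3.53 to 5.16 in wild-type livers, and Pax5 and Blk were well above background on 0 arrays. The dendritic cell genes had 5 of 8 below 0, a median of -0.08 and sums of 245 to 288 in Rap1 -/- livers against 236 to 307 in wild-type livers, and of 3.02 to 4.81 in Rap1 -/- livers against 3.45 to 4.32 in wild-type livers without the bright Siglech probe, and Xcr1 was well above background on 0 arrays. Clec9a, a marker of cross-presenting dendritic cells, differed by -0.38 ± 0.18. Over all arrays the medians of these 4 lists lay nearer 0 than that of the class II genes. They too differed by slide. On slide 1 the medians were -0.45 for leukocyte, -0.34 for B cell and -0.24 for dendritic cell genes. On slide 2 they were 0.12, 0.36 and 0.08. The part of these lists in the class II difference was not tested.

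The neutrophil genes had a median difference larger in size than the class II genes, with all 4 tested below 0 and a median of -0.75, which was -1.62 on slide 1 and 0.12 on slide 2, and sums of 3.01 to 6.70 in Rap1 -/- livers against 3.44 to 12.7 in wild-type livers. S100a9 differed by -0.86 ± 0.47, Retnlg by -0.80 ± 0.39 and S100a8 by -0.70 ± 0.43. Retnlg was dim, well above background on 2 of 4 Rap1 -/- arrays and 4 of 4 wild-type arrays. The part of the neutrophil genes in the class II values was not tested. Among the T and NK cell genes 7 of 9 lay below 0, with Cd3e at -0.24 ± 0.10, and among the monocyte genes 3 of 5 and among the plasma cell genes 3 of 4. The cholangiocyte genes ran the other way, with 1 of 5 below 0 and a median of 0.46: Krt19, a keratin of bile duct cells, differed by 0.59 ± 0.19 and Spp1 by 0.69 ± 0.24. Among the sinusoidal endothelium genes 1 of 5 lay below 0, Lyve1, a hyaluronan receptor, at -0.67 ± 0.29 (unadjusted p = 0.0457, adjusted p = 0.779 in limma), among the stellate cell genes 2 of 5 and among the hepatocyte genes 5 of 8.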

How the data were processed

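Cy3-labelled liver RNA from 8 mice, 4 per genotype, was read on single-colour arrays with 62976 spots each. Per the file headers, Agilent Feature Extraction 10.7.3.1 gave the deposited processed intensity, already background-subtracted by the authors' software, and the median and background intensities; the study's methods name another release of the software. The deposited value table holds log2 values that match normexp and quantile normalization (99.5% of values within 0.05). The submitters name limma. No sample had to be left out, no column of another sample was present, and the files hold no comparison of the authors.

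Spots of controls and outliers were left out, spots of a probe averaged, and log2 intensity centred on each array's 75th percentile. Of 55681 probes, 26056 were matched to a gene symbol through RefSeq transcripts (19752 symbols). A probe was tested when well above background on at least 4 of 8 arrays, and the tested probe of highest mean level stood for its gene. Differences, Rap1 -/- minus wild type, were fitted with limma 3.58.1 in R 4.3.3 and adjusted by Benjamini-Hochberg over 14066 genes, with a threshold of 0.05. The normexp alternatives (offset 50) were planned on mean intensities and took median intensities, which the files used here hold. Arrays correlated at 0.984 to 0.993, and none was saturated at any spot other than controls, which were not counted. The number of arrays limits the precision. The gene fit over all 8 arrays was tested on simulated data, and the fits within slides, with blocks or interaction, and over probes were not. The labels call the mice biological replicates. Named genes were the 7 members, for each pathway list up to 4 and for each marker list up to 3 genes with the smallest unadjusted p, and the 6 genes of most similar pattern. The values of 1 gene that the rule would name are not reported here. Members and lists were chosen with earlier results of these data known. Settings tried were normalizations, background, filters, probe choice, variance model, slide and replicate blocks, and leaving out each array. The motif letters were chosen by hand and promoter windows come from RefSeq.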

Additional observations from a re-analysis of the deposited data

How the results depend on the processing

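Under 21 alternatives, 0 called any class II gene and all 139 differences stayed below 0. Leaving out 1 array put the median difference of the class II genes between -0.74 (without Rap1 -/- replicate 3) and -0.33, with adjusted p of 0.752 to 0.958 in limma, and 0 genes called. In those fits H2-Aa ran from -0.68 to -0.19, H2-DMb1 from -0.88 to -0.43 and Ciita from -1.78 to -0.99. The other settings gave medians of -0.53 to -0.42 and adjusted p of 0.590 to 0.940. Ciita was -0.23 to -1.44 across the other settings, lowest in size with normexp or the deposited table, and did not pass the filter of all 8 arrays. Counts of called genes over all genes were 2 with the settings used, and 0 to 3 otherwise. Replicate numbers did not pair the arrays: same-numbered deviations correlated at 0.09, -0.18, -0.07 and 0.10, and 0 of 4 correlated best with their own number. With the replicate number as a block the median was -0.49 and 0 genes were called. Dim signal limits Ciita.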

Other observations

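Between the outermost of the 5 chromosome 17 class II genes in the RefSeq gene order lay 10 tested genes in all, the 5 class II genes and 5 others (Psmb9, Tap1, Psmb8, Tap2 and H2-Ob). This group was looked up after the values were seen. The 5 others had log2 differences of -0.28 to -0.07 with a median of -0.13, and on slide 1 of -0.61 to -0.20 with a median of -0.37, against -0.94 for the class II genes on that slide, and 0 passed. Cd74 lies on chromosome 18 and Ciita on chromosome 16.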
